A study of Mus musculus with 16 samples.

Results

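The cytosolic ribosomal protein genes were followed in 2 stages of red cell maturation in mice with and without Ypel4. A gene was counted as a member when its deposited name was Rpsa or had the form Rps, Rpl or Rplp, then a number, then at most a single letter a, l or x, and when it had at least 10 counts over the 16 libraries. Of 46078 genes listed, 81 had such a name and 77 of these passed the minimum. Rpl10l, Rpl39l, Rps4l and Rpl3l, with 0, 2, 6 and 9 counts, did not. The 77 members comprised 31 genes of the small subunit (Rps and Rpsa) and 46 of the large subunit (Rpl and Rplp). The rule used names and total counts, not a difference between groups.

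A ribosome is built from a small subunit, which reads the mRNA, and a large subunit, which joins amino acids, and each subunit is an RNA scaffold covered by many small proteins that are each encoded by a gene of its own. Erythroblasts make globin on their ribosomes at a high rate while the nucleus condenses, and once the nucleus is expelled the reticulocyte works with the ribosomes and mRNA it holds and then degrades them. In Diamond-Blackfan anaemia, a failure of early red cell production, most known mutations are in ribosomal protein genes. Ribosomal protein mRNAs typically start with a C followed by further C and T bases, the 5′ terminal oligopyrimidine (TOP) motif, through which their translation follows growth signals.

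RNA was sequenced from polychromatic erythroblasts (Poly-E) and from orthochromatic erythroblasts (Ortho-E), the last nucleated stage, sorted by FACS on Ter119 and CD44 from steady-state bone marrow after exclusion of dead cells. The mice were wild-type (Ypel4+/+) or homozygous for a gene trap allele carried in every tissue (Ypel4-/-, allele Ypel4<tm1a(EUCOMM)Wtsi> on a C57BL/6N-A<tm1Brd> background, laboratory code WtsiIeg). Each of the 4 groups, Ypel4+/+ Poly-E, Ypel4-/- Poly-E, Ypel4+/+ Ortho-E and Ypel4-/- Ortho-E, had 4 libraries, numbered as replicates in the labels. The age and sex of the mice were not given in the sources used here. The deposited library names give both populations of a replicate the same further number, read here as the mouse, and where replicates are not separate animals the p-values measure only the spread between these libraries.

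Libraries held between 2670173 and 12451234 counts. Expression is given as CPM, counts rescaled to a common library size, after scaling by TMM, which sets the level of the genes in the middle of the distribution equal between libraries. The TMM factors ranged from 1.45 to 1.64 in Poly-E and from 0.606 to 0.726 in Ortho-E, so Poly-E and Ortho-E libraries differed strongly in composition. Ypel4 averaged 577 CPM in Ypel4+/+ and 15.9 CPM in Ypel4-/- Poly-E, and 4965 and 205 CPM in Ortho-E. All 11 erythroid markers found of 12 listed had counts in each group, with summed levels of 58477 to 70848 CPM in Poly-E and 234420 to 322308 CPM in Ortho-E. Summed markers of myeloid cells (11 genes) reached 6.48 CPM in Poly-E and 21.9 CPM in Ortho-E, and Prtn3 or Elane was at 0 in each group. Those of lymphoid cells (6 genes) ranged from 22.4 to 47.6 and from 33.1 to 71.1 CPM, with Cd3e at 0 in all groups. Markers of megakaryocytes (4 genes) ranged from 26.7 to 35.4 and from 90.0 to 113 CPM, with Pf4 at 0 in Ortho-E, and those of macrophages (5 genes) from 0.774 to 3.44 and from 3.94 to 8.87 CPM. The markers of other cell types thus also differed between the populations on the TMM scale. Scaled to library totals instead, the median log2 fold changes of Ortho-E against Poly-E were as follows in Ypel4+/+ and Ypel4-/- mice. They were 0.72 and 0.73 for myeloid, -0.84 and -0.46 for lymphoid, -0.13 and -1.43 for megakaryocyte, and 0.02 and 0.10 for macrophage markers. Those of all genes were then -1.45 and -1.47. The part of these markers in the results was not tested.

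Reads that map to several places, or that overlap several genes, were not counted by the authors. Ribosomal protein genes have many processed pseudogene copies, and 38 of the 77 members had a unique position for fewer than 50% of the 75-base windows of their transcripts in the transcript set used here. The median was 51.5% and the lowest 1.48%, for Rps27. Exons of 28 members overlapped those of another listed gene, with over 25% of the exon bases shared for 7 members: Rpl35, Rpl23a, Rpl24, Rpl13a, Rps25, Rpl5 and Rpl31. Rpl24, a large subunit protein gene, shared 47.0% of its exon bases with Gm28037 and held only 34 counts over the 16 libraries, whereas every other member had 2200 or more, with Rplp0 highest at 50816. Levels compared between members are therefore levels of countable reads. Rows named as ribosomal protein pseudogenes took counts equal to 1.11% to 1.45% of the members' counts.

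Replicates 1 and 2 stood apart from replicates 3 and 4 in these genes before any comparison was made. The median of log2 of the mean CPM in replicates 1 and 2 over that in replicates 3 and 4 over the 76 members other than Rpl24 was 0.36 for Ypel4+/+ and 0.40 for Ypel4-/- Poly-E, and for Ortho-E it was 0.32 and 0.03 in that order. Over all 3717 or 3718 genes of at least 20 CPM it lay between -0.17 and -0.02. Rpl23a, of the large subunit, had 256, 218, 74.6 and 60.4 CPM in Ypel4+/+ Poly-E replicates 1 to 4, and 281, 297, 85.3 and 68.5 CPM in Ypel4-/- Poly-E. In Ortho-E it had 206, 169, 54.0 and 55.3 CPM in Ypel4+/+ and 184, 43.8, 57.8 and 54.8 CPM in Ypel4-/- libraries. Replicates 1 and 2 were high and 3 and 4 low in the first 3 groups, and in Ypel4-/- Ortho-E only replicate 1 was high. Rpl39 went the other way, with 93.4, 99.5, 165 and 149 CPM in Ypel4+/+ Poly-E. Rpl23a was chosen after its values were seen. Library depth went with the replicate numbers: in each group replicates 1 and 2 held fewer counts than replicates 3 and 4. In Ypel4+/+ Poly-E the totals were 3843335, 3348608, 10076589 and 7383540 for replicates 1 to 4. This also held in Ypel4-/- Ortho-E, where the members' median was 0.03. No batch was given in the labels, and the cause of this split, depth included, was not tested.

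**Figure D1:**
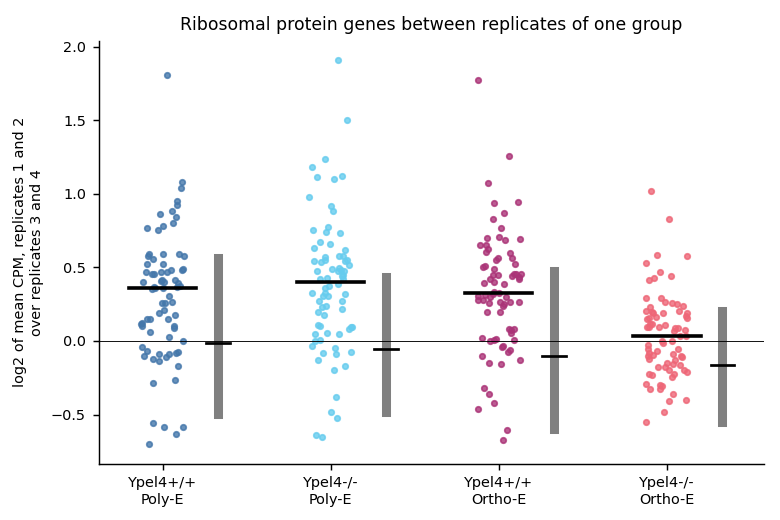
Log2 of the mean CPM in replicates 1 and 2 over that in replicates 3 and 4 (y axis) within each of the 4 groups (x axis), 1 point for each of 76 members (Rpl24 left out), with a black line at the median; the grey bar spans the 5th to 95th percentile of all genes of at least 20 CPM, with their median as a short line. The member medians lie at 0.36, 0.40, 0.32 and 0.03, above those of all genes.

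Pyrimidine runs were searched around the annotated start sites of the members. RefSeq start sites (GRCm38.p6) were found for 57 of the 77 members, 68 starts in all. The search was for at least 7 bases in a row, each C or T on the sense strand, within 15 bases either side of a start. Such a run was found for 32 of the 57 members (56.1%). It was found for 21.3% of all 27025 genes with a start and 21.5% of the 8538 other genes with at least 10 counts. A run in such a window is a match of letters and not a measured TOP motif. The windows below, 30 bases centred on the start, are of the 3 members with the lowest log2 fold change between populations that had a RefSeq start and were lower under every scaling, and of the 3 that were called higher in both genotypes. Capitals mark the longest run of C and T. Rpl34 has a second RefSeq start, which is not shown.
Rpsa, chr9:120127751-120127780, + strand: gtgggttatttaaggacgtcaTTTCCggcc
Rps4x, chrX:102189377-102189406, - strand: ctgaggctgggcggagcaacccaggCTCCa
Rps18, chr17:33955651-33955680, - strand: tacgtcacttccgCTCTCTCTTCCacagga
Rpl34, chr3:130730323-130730352, - strand: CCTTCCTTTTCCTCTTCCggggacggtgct
Rpl37a, chr1:72711245-72711274, + strand: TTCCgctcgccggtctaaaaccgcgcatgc
Rps9, chr7:3704026-3704055, + strand: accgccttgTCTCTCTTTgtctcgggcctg
The longest run had 5, 4 and 11 bases in Rpsa, Rps4x and Rps18, and 18, 4 and 9 bases in Rpl34, Rpl37a and Rps9, so short and long runs occurred among both sets.

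The members together took a smaller share of the counts in Ortho-E than in Poly-E. In Ypel4+/+ Poly-E they took 1.77, 2.05, 1.59 and 1.46% of the counts in replicates 1 to 4 (1.72% ± 0.258, SD, n = 4). In Ypel4+/+ Ortho-E they took 0.632, 0.639, 0.489 and 0.513% (0.568% ± 0.0781, SD, n = 4), a share 3.02-fold lower. Ypel4-/- Poly-E libraries gave 2.43, 2.25, 1.88 and 1.49% (2.01% ± 0.414, SD, n = 4). The Ypel4-/- Ortho-E libraries gave 0.641, 0.476, 0.476 and 0.50% (0.523% ± 0.0793, SD, n = 4), a share 3.85-fold lower than in Poly-E of that genotype. Each Poly-E library lay above each Ortho-E library, and the 2 genotypes overlapped within each population. A share falls when other genes take more of the counts: globin genes took 5.36% to 6.43% of the counts in Poly-E and 10.7% to 13.9% in Ortho-E, and with globin left out the mean shares were 1.82, 2.14, 0.650 and 0.590% in the same order of Poly-E and then Ortho-E. In bulk RNA of sorted cells, fewer cells of a type and less RNA per cell cannot be told apart.

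**Figure D2:**
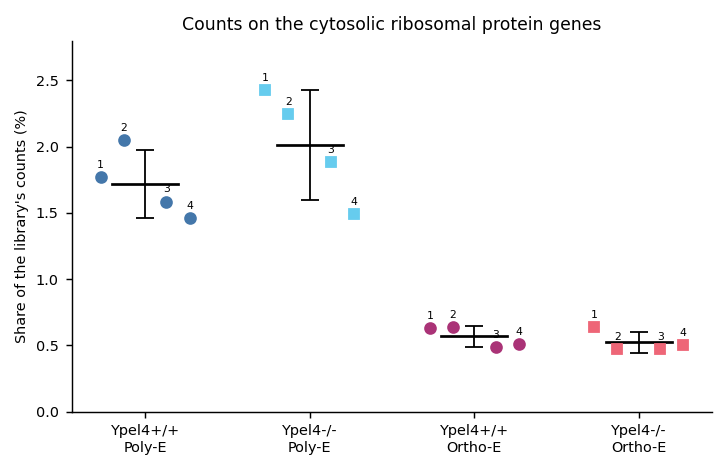
Share of each library's counts on the 77 members (y axis, %) in the 4 groups (x axis); points are libraries, marked with their replicate number, black lines the group means and bars ± 1 SD (n = 4). The 8 Poly-E libraries lie between 1.46% and 2.43%, all above the 8 Ortho-E libraries at 0.476% to 0.641%.

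Per kilobase of annotated exon, the members covered a wide range of levels. Mean levels over the 16 libraries ran from 0.372 RPKM (CPM per kilobase of exon) for Rpl24 and 12.4 RPKM for Rpl12 to 573 RPKM for Rplp1, an acidic protein of the ribosomal stalk. Rps12, Rps29, Rps26 and Rps24, all of the small subunit, followed with 524, 431, 368 and 332 RPKM. The order depends on the length used: with the length of the principal transcript the ranks of the 77 members correlated at a Spearman rho of 0.73 with those by exon length. None of these 4 was called lower in Ortho-E in Ypel4+/+ mice: the log2 fold changes, on the scale of TMM-scaled counts, were -0.24 (SE 0.24) for Rps12, 0.14 (SE 0.17) for Rps29, -0.08 (SE 0.20) for Rps26 and -0.43 (SE 0.43) for Rps24. In Ypel4-/- mice Rps12 was lower in Ortho-E (-0.71, SE 0.19, adjusted p 0.00562), and Rps29, Rps26 and Rps24 had values of -0.06, -0.39 and -0.84 with adjusted p of 0.773, 0.053 and 0.156. With the mouse as a block Rps12 (-0.25) and Rps24 were called lower in Ypel4+/+ mice, and Rps24 and Rps26 in Ypel4-/- mice.

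Ortho-E were compared with Poly-E within each genotype to ask how the members change as erythroblasts mature. In Ypel4+/+ mice 37 of the 77 members were lower in Ortho-E and 4 were higher at an adjusted p of 0.05 or less (quasi-likelihood test of edgeR, Benjamini-Hochberg adjustment over 11747 genes), and 36 were not called. Of all genes tested 32.1% were called lower and 26.4% higher. The median log2 fold change of the members was -0.35, that of all genes -0.19, and single members ranged from -1.72 for Rpsa to 0.66 for Rpl37a and Rpl24. In Ypel4-/- mice 46 members were lower and 4 higher, where 31.5% of 11973 genes were called lower and 29.5% higher. The median of the members was there -0.62 against -0.09 for all genes. All 4 Ortho-E libraries lay below all 4 Poly-E libraries for 25 members in Ypel4+/+ and 39 in Ypel4-/- mice, where 30.6% and 32.4% of all genes tested did so, and above for 3 and 1, where 22.6% and 23.1% did so. The 25 members so separated in Ypel4+/+ mice were so separated in Ypel4-/- mice too, and are among those 39. The share of all genes separated in both genotypes was not computed.

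These counts rest on the scaling and, in Ypel4+/+ mice, on single libraries. Scaled to library totals without TMM, the median of all genes fell to -1.45 in Ypel4+/+ and -1.47 in Ypel4-/- mice. Then 75 and 76 members were lower and none was higher, where 7086 of 11747 and 7288 of 11973 genes were lower. Of all genes called the share that was higher dropped from 45.1% to 14.7% and from 48.4% to 15.5%. Relative to the median of all genes the members stood at -0.16 with TMM and -0.19 with totals in Ypel4+/+ mice, and at -0.54 and -0.57 in Ypel4-/- mice. With a stricter filter on low counts (filterByExpr) this distance was 0.01 in Ypel4+/+ and -0.36 in Ypel4-/- mice. With this filter 26 of 76 members were lower in Ypel4+/+ mice, where 3133 of 7402 genes were. In Ypel4-/- mice 42 of 76 members were lower, where 3163 of 7582 genes were. Without Ypel4+/+ Poly-E replicate 2 or 3 only 21 or 23 members were called lower in Ypel4+/+ mice. Of all genes 3448 of 11542 and 3278 of 11040 were lower in these fits, shares near those of the members. Without Poly-E replicate 1, 2 or 3 the number called higher was 7, 8 and 7. Of all genes 3330 of 11508, 3167 of 11542 and 3126 of 11040 were. In Ypel4-/- mice 1 was called higher without Ortho-E replicate 3, where 3222 of 11784 genes were. The main fits leave out the pairing of the 2 populations by mouse. With the mouse as a block 8 members were higher and 48 lower in Ypel4+/+ mice, where 3223 and 3924 of 11747 genes were. In Ypel4-/- mice 5 were higher and 57 lower with this block, where 3601 and 3875 of 11973 genes were. From replicates 1 and 2 alone 34 were lower and 7 higher in Ypel4+/+ mice and 50 and 1 in Ypel4-/- mice. Of all genes 2947 and 2479 of 9317, and 2955 and 2624 of 9735, were. From replicates 3 and 4 alone it was 46 and 6, and 45 and 5. Of all genes 3613 and 3120 of 10999, and 3555 and 3253 of 11158, were.

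**Figure D3:**
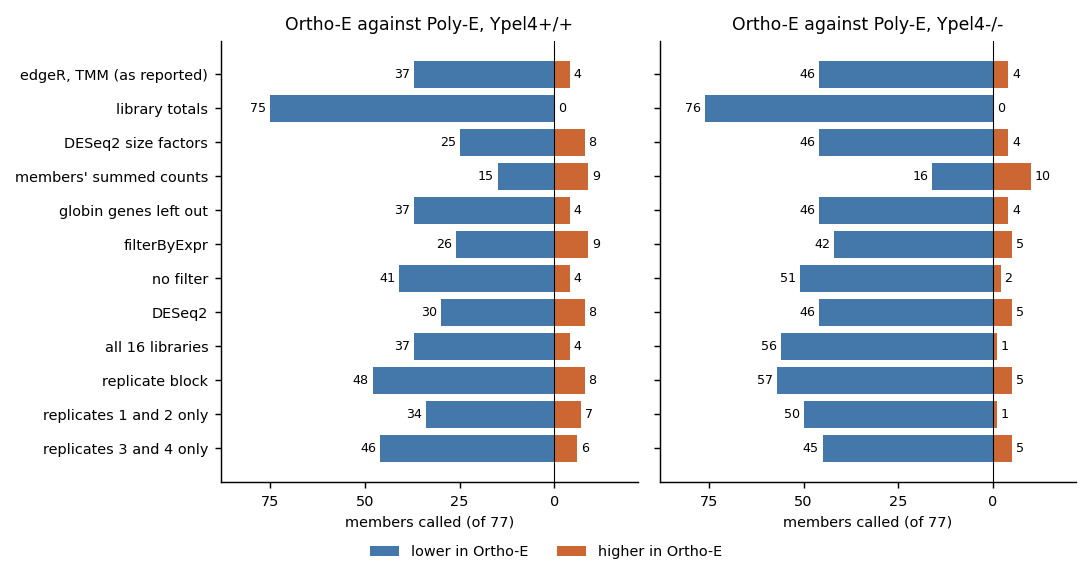
Number of the 77 members called lower (left of 0) or higher (right of 0) in Ortho-E than in Poly-E at an adjusted p of 0.05 or less, for Ypel4+/+ (left) and Ypel4-/- (right) mice, under 12 ways of scaling, filtering or fitting. Lower calls range from 15 to 75 and from 16 to 76, and no member is called higher with library totals.

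Of the 31 small subunit genes 20 were lower and 1 higher in Ypel4+/+ mice (median log2 fold change -0.48), and of the 46 large subunit genes 17 were lower and 3 higher (median -0.25). For Ypel4-/- mice the small subunit had 23 lower and 1 higher (median -0.73) and the large subunit 23 lower and 3 higher (median -0.42). For all genes tested the shares called lower were 32.1% and 31.5%, and those of the large subunit in Ypel4+/+ mice (37.0%) lay near them. Whether the subunits differ was not tested. Among the 39 members with a unique position for over 50% of their windows 19 were lower and 3 higher in Ypel4+/+ mice, and among the 49 without exon overlap 22 were lower and 4 higher. Across the 77 members the log2 fold change in Ypel4+/+ mice had a Spearman rho of -0.05 with the percentage of unique windows and of 0.31 with the mean CPM, as a description over genes that share libraries.

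Rpsa fell most. It encodes a protein of the small subunit that is also known as a laminin receptor (ENSMUSG00000032518, chromosome 9 from 120127766 to 120132369, + strand, GRCm38). Its level was 211, 251, 198 and 162 CPM in Ypel4+/+ Poly-E and 66.3, 69.1, 57.3 and 52.7 CPM in Ypel4+/+ Ortho-E. The Ypel4-/- libraries had 307, 266, 231 and 181 CPM in Poly-E and 67.0, 43.8, 48.9 and 54.8 CPM in Ortho-E. Every Ortho-E library was below every Poly-E library. The difference was 3.29-fold in Ypel4+/+ (log2 fold change -1.72, SE 0.14, adjusted p 5.59e-11) and 4.07-fold in Ypel4-/- mice (-2.02, SE 0.15, adjusted p 3.59e-13), and Rpsa was called lower under all 5 scalings in both genotypes.

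Rps4x, Rps18 and Rpl22 followed. Rps4x, the X-linked gene of a small subunit protein, had 262, 243, 189 and 173 CPM in Ypel4+/+ Poly-E and 82.0, 85.1, 62.6 and 59.5 CPM in Ortho-E, a 2.95-fold lower level (log2 fold change -1.56, SE 0.15, adjusted p 2.16e-09). Rps18, of the head of the small subunit, had 59.3, 84.8, 81.8 and 69.5 CPM in Poly-E and 21.97, 25.7, 22.3 and 28.9 CPM in Ortho-E (2.90-fold lower, -1.54, SE 0.15, adjusted p 1.50e-09). Rpl22, a large subunit protein that is not needed for translation in general, had 76.5, 79.2, 59.02 and 54.3 CPM in Poly-E and 27.04, 28.6, 19.0 and 25.9 CPM in Ortho-E (2.62-fold lower, -1.39, SE 0.16, adjusted p 3.00e-08). For all 3 the populations did not overlap. The log2 fold changes in Ypel4-/- mice were -1.77, -1.62 and -1.56, with SE of 0.18, 0.15 and 0.17, and the populations did not overlap either. These 3, Rpsa and Rps19 were among the members called lower under all 5 scalings in both genotypes, as were Rpl13a and Rps15. Rpl13a shares 37.3% of its exon bases with other genes.

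Rps20, of the small subunit, had a fold change as large but a wide spread. It had 154, 167, 84.3 and 67.9 CPM in Ypel4+/+ Poly-E and 68.9, 56.6, 26.3 and 26.1 CPM in Ortho-E. Its levels in Ypel4-/- mice were 239, 229, 92.0 and 73.6 CPM and 79.6, 22.6, 29.5 and 28.0 CPM. The populations overlapped in both genotypes, since Ortho-E replicate 1 lay above Poly-E replicate 4, but within each of the 8 mouse numbers Ortho-E was lower than Poly-E. The log2 fold changes were -1.41 (SE 0.48, adjusted p 0.0431) and -1.83 (SE 0.61, adjusted p 0.0394). Both calls were lost in 6 and 5 of the 8 fits that left out 1 library: in Ypel4+/+ mice without Poly-E replicate 1, 2 or 3 or Ortho-E replicate 2, 3 or 4, and in Ypel4-/- mice without Poly-E replicate 1 or 2 or Ortho-E replicate 2, 3 or 4, with values of -1.72 to -1.09 and -2.43 to -1.55 over all fits. With the mouse as a block both were called (-1.40 and -1.75).

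The members called higher with TMM were higher in both genotypes for Rpl37a, Rpl34 and Rps9, in Ypel4+/+ mice for Rpl17 and in Ypel4-/- mice for Rpl38, and with library totals no member was called higher. Rpl37a, a small zinc-binding protein of the large subunit (ENSMUSG00000046330, chromosome 1 from 72711260 to 72713809, + strand), had 70.9, 81.3, 76.6 and 65.1 CPM in Ypel4+/+ Poly-E and 146, 103, 99.6 and 105 CPM in Ortho-E. Its levels in Ypel4-/- mice were 81.8, 87.3, 79.3 and 64.1 CPM in Poly-E and 104, 97.9, 110 and 114 CPM in Ortho-E. Here each Ortho-E library lay above each Poly-E library in both genotypes, with log2 fold changes of 0.66 (SE 0.14, adjusted p 0.000158) and 0.63 (SE 0.12, adjusted p 4.25e-05), but of -0.63 and -0.79 with library totals. Relative to the median of all genes it was thus high under either scaling. Rpl34, also of the large subunit, had 108.8, 120, 125 and 122 CPM in Ypel4+/+ Poly-E and 182, 158, 191 and 187 CPM in Ortho-E (0.63, SE 0.12, adjusted p 4.55e-05, and -0.65 with library totals). Rps9, of the small subunit, had 136, 146, 164 and 146 CPM and 201, 187, 191 and 219 CPM (0.46, SE 0.12, adjusted p 0.00122, and -0.82 with library totals). In Ypel4-/- mice the populations overlapped for Rpl34 and Rps9, with log2 fold changes of 0.46 (SE 0.13) and 0.38 (SE 0.12), and both calls were lost without Ortho-E replicate 3, with values of 0.33 and 0.31.

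Rpl17 lies on chromosome 18 and belongs to the rim of the tunnel through which a new protein leaves the large subunit. It had 148, 171, 129 and 118 CPM in Ypel4+/+ Poly-E and 233, 189, 147 and 152 CPM in Ortho-E, with overlap (0.38, SE 0.15, adjusted p 0.0326, and -0.91 with library totals). The call was lost without Ortho-E replicate 1 (0.24) or 2 (0.37), and in Ypel4-/- mice the value was 0.14 (SE 0.13, adjusted p 0.378). For Rpl38, a large subunit gene whose loss in mice alters the body axis and which is named after its values were seen, the log2 fold change was 0.19 (SE 0.14, adjusted p 0.226) in Ypel4+/+ and 0.37 (SE 0.14, adjusted p 0.0174) in Ypel4-/- mice. Rpl24 had 0 to 1.11 CPM and a log2 fold change of 0.66 (SE 1.03) and 1.24 (SE 0.81), and neither value was called at this depth.

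**Figure D4:**
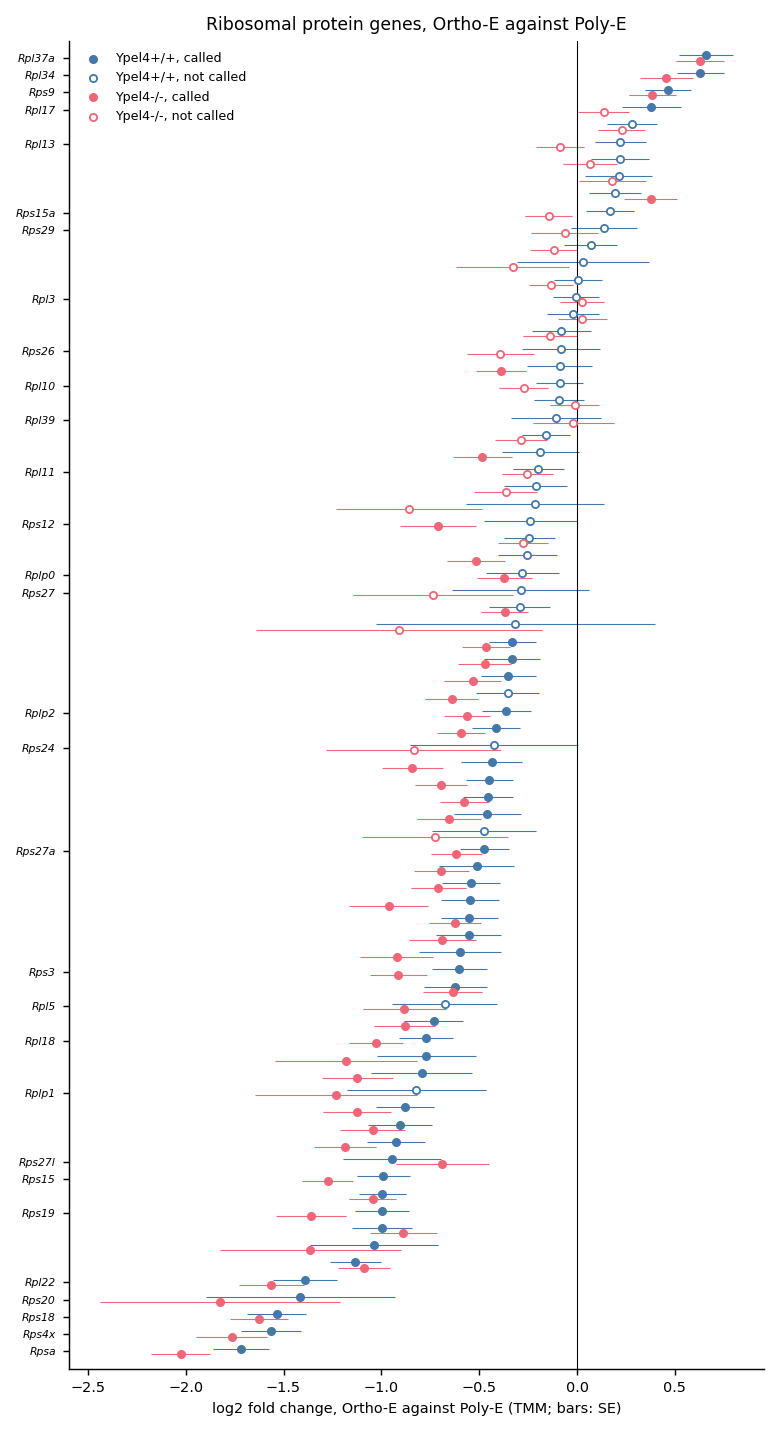
Log2 fold change of Ortho-E against Poly-E (x axis, TMM-scaled counts; bars are the SE of the fit) for 76 members (y axis, labels for the members chosen by the naming rule of the text, Rpl24 left out for its low counts), in Ypel4+/+ (blue) and Ypel4-/- (red) mice, ordered by the value in Ypel4+/+ mice. Filled points are called at an adjusted p of 0.05 or less: 37 lower and 4 higher in Ypel4+/+ and 46 lower and 4 higher in Ypel4-/- mice; with library totals no member is called higher.

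The proteins of the stalk, which recruits the factors of translation, and of the particle that carries the smallest ribosomal RNA into the large subunit were the next group. Rplp0, the base of the stalk, had 627, 741, 474 and 433 CPM in Ypel4+/+ Poly-E and 550, 544, 338 and 403 CPM in Ortho-E, overlapping, with a log2 fold change of -0.28 (SE 0.19, adjusted p 0.216). In Ypel4-/- mice it was -0.37 (SE 0.14, adjusted p 0.0216), a call that was lost without Poly-E replicate 1 (-0.30) or 2 (-0.28) and became 0.15 when libraries were scaled to the members' own sum. Rplp1, an acidic stalk protein, had 424, 472, 262 and 232 CPM in Ypel4+/+ Poly-E and 257, 251, 134 and 131 CPM in Ortho-E, and its values of -0.82 (SE 0.36, adjusted p 0.0895) and, in Ypel4-/- mice, -1.23 (SE 0.41, adjusted p 0.0397) lay on either side of the threshold. The call in Ypel4-/- mice was lost without Poly-E replicate 1 or 2 or Ortho-E replicate 2, 3 or 4, with values of -1.60 to -1.02 over the fits that left out 1 library. Rplp2, its partner, was lower in both genotypes (-0.36, SE 0.13, adjusted p 0.0161, and -0.56, SE 0.12, adjusted p 0.000105). In Ypel4+/+ mice that call was lost without Poly-E replicate 1, 2 or 3 or Ortho-E replicate 3, with values of -0.40 to -0.19 over the fits that left out 1 library.

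Rpl5 and Rpl11, which bind the smallest ribosomal RNA and, outside the ribosome, the p53 regulator Mdm2, had log2 fold changes of -0.68 (SE 0.27, adjusted p 0.0525) and -0.20 (SE 0.13, adjusted p 0.201) in Ypel4+/+ mice. Rpl5 was lower in Ypel4-/- mice (-0.88, SE 0.21, adjusted p 0.00224), and Rpl11 had -0.25 (SE 0.13, adjusted p 0.0977). Rpl11 had 62.3, 58.3, 78.3 and 66.3 CPM in Ypel4+/+ Poly-E and 57.5, 54.3, 56.3 and 58.1 CPM in Ortho-E, so the populations just did not overlap. Of the 5 genes of this group 1 was called lower in Ypel4+/+ and 4 in Ypel4-/- mice, where 32.1% and 31.5% of all genes were. DESeq2 size factors gave 0 and 4, where 3473 of 11747 and 3682 of 11973 genes were lower. Scaled to the members' sum 1 was lower in each genotype, where 2678 and 2263 of all genes were. With the mouse as a block Rplp0 (-0.27), Rplp1 (-0.82) and Rpl5 (-0.65) were also called lower in Ypel4+/+ mice and Rpl11 (-0.25) in Ypel4-/- mice.

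**Figure D5:**
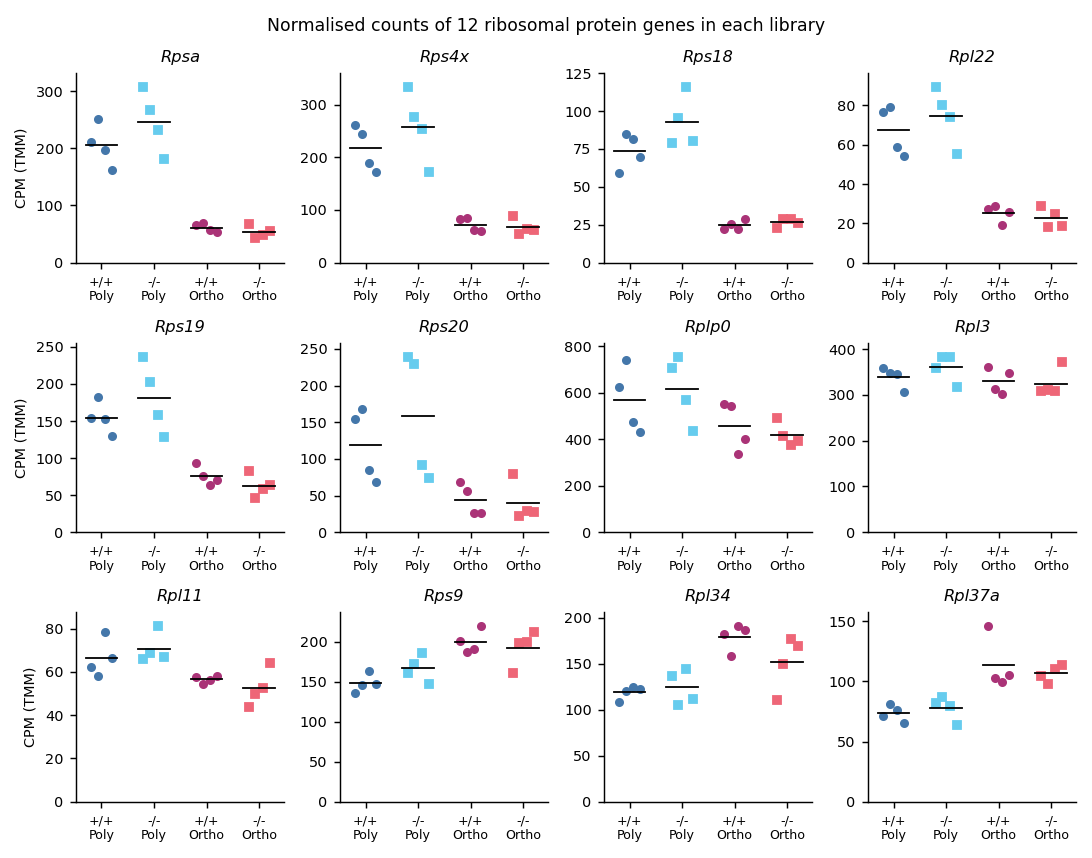
TMM-scaled CPM (y axes, each from 0) of 12 members in each library of the 4 groups (x axis; points are the libraries, in order of replicate number from left to right, lines the means). Rpsa, Rps4x, Rps18, Rpl22 and Rps19 are lower in every Ortho-E than in every Poly-E library of their genotype, Rpl37a is higher in every one on this scale but lower with library totals, and Rplp0 and Rpl3 overlap.

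Rps19, the gene most often mutated in Diamond-Blackfan anaemia, had 154, 183, 152 and 129 CPM in Ypel4+/+ Poly-E and 93.4, 76.0, 63.3 and 70.9 CPM in Ortho-E (2.00-fold lower, log2 fold change -0.997, SE 0.14, adjusted p 6.25e-07). Ypel4-/- libraries gave 237, 202, 158 and 128 CPM and 82.3, 45.6, 58.7 and 63.3 CPM (-1.36, SE 0.18, adjusted p 1.88e-06). The populations did not overlap in either genotype. Of 22 members listed for this anaemia, all tested, 10 were lower and none higher in Ypel4+/+ mice, and 11 were lower and none higher in Ypel4-/- mice, with medians of -0.42 and -0.69, where 32.1% and 31.5% of all genes were lower. With library totals all 22 were lower in both genotypes, where 7086 of 11747 and 7288 of 11973 genes were lower. DESeq2 size factors gave 4 lower and 1 higher in Ypel4+/+ mice, where 3473 and 3374 of all genes were. Scaled to the members' sum 4 were lower and 2 higher there, where 2678 and 3473 of all genes were. In Ypel4-/- mice 5 were lower with that scaling, where 2263 of all genes were. The lowest was Rps20 in both genotypes. The highest was Rps15a in Ypel4+/+ mice (0.17) and Rps29 in Ypel4-/- mice (-0.06). Rps24 and Rps26, also on that list, were not called, but with the mouse as a block Rps24 was lower in both genotypes (-0.42 and -0.80) and Rps26 in Ypel4-/- mice (-0.39).

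Copies with names ending in l and their parents could be compared in part. Rps27l, a p53-responsive copy of Rps27, had 14.2, 21.5, 28.4 and 25.04 CPM in Ypel4+/+ Poly-E and 12.7, 4.57, 11.99 and 14.2 CPM in Ortho-E, and was lower in both genotypes (-0.95, SE 0.25, adjusted p 0.00301, and -0.69, SE 0.24, adjusted p 0.0169). The second call was lost without Ypel4-/- Poly-E replicate 4 (-0.52). Its parent Rps27 had 186, 208, 107 and 96.6 CPM and 155, 153, 80.9 and 92.4 CPM in Ypel4+/+ mice, with overlap, and log2 fold changes of -0.29 (SE 0.35) and -0.73 (SE 0.41) that were not called, or -0.26 and -0.69, both called, with the mouse as a block. Rpl3, which lies near the catalytic centre of the large subunit, had 360, 347, 346 and 306 CPM and 361, 313, 301 and 349 CPM in Ypel4+/+ mice, and its log2 fold changes of -0.00 (SE 0.12) and 0.02 (SE 0.11) were not called, against medians of all genes of -0.19 and -0.09. Those of Rpl10, a late-joining protein of the large subunit, were -0.09 (SE 0.12) and -0.27 (SE 0.12, adjusted p 0.0565, and called lower with the mouse as a block). Those of Rpl39, the smallest protein near the exit tunnel, were -0.11 (SE 0.23) and -0.02 (SE 0.21). Their copies Rpl3l, Rpl10l, Rpl39l and Rps4l were those with under 10 counts.

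The calls of the 2 genotypes overlapped. All 37 members lower in Ypel4+/+ mice were also lower in Ypel4-/- mice, 3 were higher in both, 26 were called in neither, and none was called in opposite directions. Over the 77 members the log2 fold changes of the 2 genotypes, from separate libraries, had a Pearson r of 0.95 and a Spearman rho of 0.94, as a description across genes of the same experiment. Neither the joint counts nor these correlations were computed over all genes, so they do not mark out the members. The value was lower in Ypel4-/- than in Ypel4+/+ mice for 68 of the 77 members. These values come from separate fits. The difference itself is the interaction of genotype and population, fitted over all 16 libraries, which was below 0 for 74 members and above 0 for 3, and for which the quasi-likelihood test of edgeR, after Benjamini-Hochberg adjustment, called none of the 13318 genes tested (percent called 0), 77 members included. At an unadjusted p of 0.05 or less 6 members passed (2.73% of all genes, 364), and DESeq2 had 6 members and 256 genes. With the mouse as a block 42 members passed unadjusted, as did 469 of the 13318 genes, and the lowest adjusted p of a member was 0.158. The median of the members was -0.33 against 0.01 for all genes, and it was -0.47 in replicates 1 and 2 and -0.08 in replicates 3 and 4. The 3 members with the lowest p were Rps15a (-0.46, SE 0.18, p 0.0136), Rpl13 (-0.45, SE 0.19, p 0.0198) and Rps15 (-0.43, SE 0.19, p 0.0307), each with an adjusted p of 1. Rps15a, a small subunit gene, had means of 216, 243, 237 and 194 CPM in Ypel4+/+ Poly-E, Ypel4-/- Poly-E, Ypel4+/+ Ortho-E and Ypel4-/- Ortho-E. Its SDs were 18.3, 38.8, 32.3 and 6.73 CPM.

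Ypel4-/- and Ypel4+/+ mice were compared within each population to ask what the loss of Ypel4 does to these genes. In Poly-E no member was called, and of 12395 genes 1 was (0.00807%), Ypel4 itself. At an unadjusted p of 0.05 or less 2 members passed (2.19% of all genes). With DESeq2 it was 1 member and 174 of the 12395 genes, and with the replicate block 38 members and 408 genes, where the lowest adjusted p of a member was 0.457. The log2 fold changes of the members ranged from -0.01 to 0.43 with a median of 0.17, against 0.00 for all genes, and 76 of 77 lay above 0. The median was 0.19 in replicates 1 and 2 and 0.12 in replicates 3 and 4. It lay at 0 or below only when libraries were scaled to the members' own sum, which removes a shared difference by construction. Rps18 had the lowest p (0.32, SE 0.14, p 0.0286, adjusted p 1), with 79.0, 95.4, 116 and 80.2 CPM in Ypel4-/- against 59.3, 84.8, 81.8 and 69.5 CPM in Ypel4+/+ libraries, which overlapped. Rpl18 (0.28, SE 0.13, p 0.0391) and Rps27a, which encodes ubiquitin fused to a small subunit protein (0.23, SE 0.11, p 0.0547), followed.

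In Ortho-E no member was called, and 3 of 10521 genes were (0.0285%). Of the members 2 passed at an unadjusted p of 0.05 or less (3.68% of all genes). With DESeq2 it was 1 member and 219 of the 10521 genes, and with the replicate block 19 members and 572 genes, where the lowest adjusted p of a member was 0.314. Summed lymphoid markers did not overlap between the genotypes, at 33.1 to 46.3 CPM in Ypel4+/+ and 50.2 to 71.1 CPM in Ypel4-/- libraries. None of the 4 tested was called, but 3 passed at an unadjusted p of 0.05 or less, and their median log2 fold change was 0.70. Cd3e was at 0, and the part of these markers in the values was not tested. The median of the members was -0.15, against 0.01 for all genes, 64 of 77 lay below 0, and the median was -0.25 in replicates 1 and 2 and -0.03 in replicates 3 and 4. Rps15a had the lowest p (-0.27, SE 0.11, p 0.0239, adjusted p 0.996), with 188, 189, 199 and 201 CPM in Ypel4-/- and 254, 269, 195 and 230 CPM in Ypel4+/+ libraries. Replicates 1 and 2 differed there and replicates 3 and 4 less, and the genotypes overlapped. Rps3, of the mRNA entry side of the small subunit (-0.29, SE 0.14, p 0.0478), and Rpl17 (-0.28, SE 0.14, p 0.0512) followed.

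Genes that build or serve the ribosome were counted from lists, against 32.1% of all genes called lower and 26.4% higher in Ypel4+/+ mice, and 31.5% and 29.5% in Ypel4-/- mice. These shares are with TMM. With library totals 7086 of 11747 and 7288 of 11973 genes were lower and 1217 and 1338 higher. Scaled to the members' sum 2678 and 2263 were lower and 3473 and 4328 higher. Of 75 mitochondrial ribosomal protein genes tested, which serve the separate ribosomes of mitochondria, 45 were lower and 1 higher in Ortho-E of Ypel4+/+ mice, and 44 and 2 in Ypel4-/- mice, with medians of -1.18 and -1.11. With library totals 70 were lower in each genotype, and scaled to the members' sum 32 and 28. Their share of the counts was 0.0979% to 0.125% in the Poly-E and 0.0200% to 0.0280% in the Ortho-E libraries, with means 4.32-fold and 4.87-fold lower. The gene highest among them was Mrpl32 (1.43 and 1.44, and 0.15 and 0.02, not called, with library totals). The lowest in Ypel4+/+ mice, Mrpl44, had 0.522 to 1.74 CPM in Poly-E and 0 counts in Ortho-E, and the lowest in Ypel4-/- mice, Mrpl23, 0.360 to 1.37 CPM and 0 counts.

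Of the RNA polymerase I genes, which transcribe ribosomal RNA, 5 of 12 tested were lower and 1 higher in Ypel4+/+ mice, and 4 and 2 of 13 in Ypel4-/- mice. Rrn3, which brings this polymerase to its promoter, was lowest (-2.33, SE 0.46, and -2.05, SE 0.39), and Polr1a, its largest subunit, highest (0.89, not called, and 1.58, but -0.38 and 0.21, neither called, with library totals). Of the ribosome assembly factors 21 of 57 were lower and 7 higher in Ypel4+/+ mice, and 20 and 6 of 59 in Ypel4-/- mice. The lower calls were close to the shares of all genes, and the higher calls were fewer than those shares. None was higher with library totals. With library totals 47 and 45 were lower, and scaled to the members' sum 8 in each genotype. Nop56, of the particles that methylate ribosomal RNA, had 37.7, 44.3, 48.8 and 43.7 CPM in Ypel4+/+ Poly-E and 10.6, 14.9, 14.0 and 13.8 CPM in Ortho-E (-1.68, SE 0.16). Rpf1, which acts in large subunit assembly, was higher (1.45, SE 0.16, and 1.63, SE 0.14, but 0.17 and 0.21, not called, with library totals). Wdr75, another assembly factor, was lowest in Ypel4-/- mice (-3.38, SE 0.73), at 0.371 CPM or less in each Ypel4-/- Ortho-E library. In Ypel4+/+ mice its value was -0.73 (SE 0.49) and was not called.

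Of 34 translation initiation factors 21 were lower and 9 higher in Ypel4+/+ mice and 20 and 9 in Ypel4-/- mice, with medians of -0.74 and -0.57. With library totals 32 were lower and 2 higher in each genotype, and scaled to the members' sum 12 were lower and 10 higher, and 10 and 11. Eif5, the GTPase activator of the start codon complex, rose in both genotypes under every scaling, from 1020, 687, 647 and 577 CPM to 8310, 7862, 7428 and 7976 CPM in Ypel4+/+ mice (3.46, SE 0.16, and 2.19 with library totals). Eif3g fell (-1.96, SE 0.25, and -1.85, SE 0.22). Of 6 elongation factors 2 were higher in each genotype and 2 and 3 lower, with none higher with library totals: Eef1d was 0.81 and 0.80, but -0.47 and -0.62 with totals, and Eef1g -0.50 and -0.57. Of 10 genes for ribosome recycling and rescue 6 were lower and 3 higher in each genotype, with Zfp598, a sensor of collided ribosomes, lowest in Ypel4+/+ (-2.42, SE 0.26), Gspt1, a termination factor, lowest in Ypel4-/- (-2.22, SE 0.20), and Gtpbp2 highest (1.68 and 2.00).

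Of 12 genes of TOP mRNA and growth control 6 were lower and 2 higher in each genotype. Larp1, which binds the TOP motif, fell from 52.6, 65.2, 90.8 and 92.7 CPM in Ypel4+/+ Poly-E to 9.72, 18.3, 21.0 and 25.9 CPM in Ortho-E (-1.94, SE 0.26, adjusted p 2.47e-05), and Tsc1, an inhibitor of mTOR, rose from 46.3, 36.2, 42.2 and 45.6 CPM to 140, 138, 145 and 179 CPM (1.86, SE 0.13, adjusted p 2.43e-12, and 0.58 with library totals). The value of Tsc1 was 2.22 in Ypel4-/- mice, and Myc was lowest (-2.18, SE 0.83) at no more than 1.98 CPM. Of 6 ribosomal proteins outside the naming rule 3 were lower and 1 higher in each genotype. Rpl22l1, the copy of Rpl22, was higher with TMM (0.84, SE 0.15, and 0.62, SE 0.17) and lower with library totals (-0.45 and -0.80), and Rpl36al (-0.96, SE 0.17) and Gnb2l1, an older name of Rack1 (-1.01, SE 0.15 in Ypel4-/- mice), were lowest. Rps3a1, which the rule leaves out for its name, had values of -0.29 (adjusted p 0.144) and -0.42 (adjusted p 0.0100). Of the pseudogene rows 5 of 51 were higher and 4 lower in Ypel4+/+ mice and 5 and 11 of 50 in Ypel4-/- mice. No gene of any of these lists was called in a comparison of genotypes or in the interaction.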

How the data were processed

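RNA from 16 sorted erythroblast samples was sequenced on a NextSeq with 150 cycles from TruSeq RNA libraries, which do not mark strand. The authors aligned the reads to GRCm38 (mm10) with nf-core/rnaseq and deposited whole-number counts per gene from featureCounts 1.6.4, with multimapping reads and reads over more than a single gene discarded. No deposited value column lacked a sample. From the counts, genes summing to 10 counts or more in the libraries compared were fitted with edgeR 4.0.16 (quasi-likelihood test, TMM, R 4.3.3) without a block, from the libraries of the groups compared, or from all 16 for the interaction. A gene is called when its p, adjusted after Benjamini and Hochberg, is at most 0.05, and all adjusted p-values printed are from edgeR. RPKM divides the CPM by exon length.

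Poly-E and Ortho-E libraries of a number share the mouse number. Their deviations from the group means over 5956 genes correlated at 0.38 to 0.55 in Ypel4+/+ and at 0.0862 to 0.45 in Ypel4-/- mice. The lowest value in Ypel4-/- mice is below the limit of 0.1, although 3 of the 4 numbers correlated best with themselves. The mouse block in that genotype therefore rests on the shared number. Between genotypes same-numbered libraries correlated at 0.20 to 0.57 in Poly-E, which by the limit of 0.1 counts as paired although other numbers reached 0.54. Only 1 of the 4 numbers correlated best with itself there. In Ortho-E they correlated at -0.09 to 0.26, which does not count as paired. In comparisons of genotypes the replicate block matches libraries of different animals by number alone. No libraries were copies of each other (chi-square per degree of freedom of 3.87 to 30.9 within groups).

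The members, lists and tests were chosen with earlier results of these data known. Members named are those of the stalk and smallest ribosomal RNA particle, Rpsa, the copies and their parents, the 5 highest and the 5 lowest log2 fold changes in Ypel4+/+ mice, the 5 highest RPKM, 5 anaemia genes and, for the genotypes, the 3 with the lowest p. From each list of genes that build or serve the ribosome the highest and lowest gene in Ypel4+/+ mice is named. For the pseudogene rows and cell type markers, which the rule also covered, only counts, sums or medians are given. The highest and lowest genes in Ypel4-/- mice were added after their values were seen, as were Rpl23a and Rpl38. The alternatives were other scalings (library totals, DESeq2 size factors, the members' summed counts, globin left out), other filters, DESeq2 1.42.0, all 16 libraries, the replicate block and leaving out each library. The term for replicates 1 and 2 and the fits on each pair of replicates were chosen after seeing the data. The model was tested on simulated data. Unique windows of 75 bases were searched in the annotated transcripts only. The individual values of a further member are not reported here.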

Additional observations from a re-analysis of the deposited data

Results flagged for a closer look

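Of 128 sets of 4 libraries examined, 10 held a library far from the other 3 (gap over range above Dixon's 95% limit), and chance flags about 1 in 20 groups. Of these, 7 were of Ypel4-/- Ortho-E replicate 1. There the members' share of the counts was 0.641%, against 0.476, 0.476 and 0.50% in the other libraries. Rplp1 stood at 256 CPM (others 116, 135 and 140), Rps20 at 79.6 CPM (22.6, 28.0 and 29.5), Rps24 at 308 CPM (132, 151 and 153) and Rps27 at 150.3 CPM (69.4, 78.9 and 79.7). Rpl39 was low at 81.9 CPM (133, 134 and 143), and so was Rps27l at 5.85 CPM (15.2, 15.4 and 15.4). These flags are not independent, since the share sums the members and the genes share a library. In Ypel4+/+ Ortho-E replicates 1 and 2 the share was 0.632 and 0.639%, close to that of this library. Its Rplp1 and Rps27 levels also lay near those given above for these replicates. Its Rps20 level lay above both, and its Rps27l level between them. The cause, and any link to the split between replicates, was not tested.

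The other 3 were single genes. Rps27a had 87.9 CPM in Ypel4-/- Poly-E replicate 4 (others 113, 113 and 115), Rpl37a 146 CPM in Ypel4+/+ Ortho-E replicate 1 (99.6, 103 and 105), and Rpl3 371 CPM in Ypel4-/- Ortho-E replicate 4 (308, 309 and 311).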

How the results depend on the processing

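Among the values for whole comparisons under the alternatives, 421 kept their direction and stayed within the limits set for a change, and 31 moved. With library totals 0 members were higher and 75 lower in Ypel4+/+ mice (median -1.64), and 0 and 76 in Ypel4-/- mice (median -2.05). Scaled to the members' summed counts, 9 were higher and 15 lower (median -0.0451), and 10 and 16 (median -0.11), and the interaction had a median of 0.0208. Of all genes 3473 were higher and 2678 lower with that scaling in Ypel4+/+ mice, and 4328 and 2263 in Ypel4-/- mice. In Ypel4+/+ mice 8 members were higher with DESeq2 size factors, with DESeq2, with the replicate block and with a term for the replicate split. Of all 11747 genes 3374, 3299, 3223 and 3296 were in that order. With filterByExpr 9 were higher, where 2695 of 7402 genes were. With replicates 1 and 2 only it was 7, where 2479 of 9317 genes were. In Ypel4-/- mice 2 were higher with no filter beyond 1 count, where 3574 of 18275 genes were. With all 16 libraries and with replicates 1 and 2 only 1 was higher, where 3316 of 13318 and 2624 of 9735 genes were. In replicates 3 and 4 only, the members' median relative to all genes was -0.31 in Ypel4-/- mice and that of the interaction -0.0797. Without globin genes the share in Ypel4+/+ Ortho-E was 0.650%. Leaving out 1 library gave 3 to 8 members higher and 21 to 39 lower in Ypel4+/+ mice (median -0.44 to -0.17). Of 11040 to 11661 genes tested there, 2798 to 3330 were higher and 3278 to 3584 lower. In Ypel4-/- mice it gave 1 to 5 members higher and 41 to 51 lower (median -0.69 to -0.57). Of 11113 to 11840 genes tested there, 3161 to 3476 were higher and 3467 to 3749 lower. Library totals reversed Rpl13 (-1.07), Rpl17 (-0.91), Rpl34 (-0.65), Rpl37a (-0.63), Rps15a (-1.12), Rps29 (-1.15) and Rps9 (-0.82) in Ypel4+/+ mice, and Rpl17 (-1.29), Rpl3 (-1.40), Rpl34 (-0.97), Rpl37a (-0.79) and Rps9 (-1.04) in Ypel4-/- mice. Rplp0 was 0.15 there when scaled to the members' sum. Beyond the scalings and fits on fewer samples, the cause was not tested. The replicate block called no member in a comparison of genotypes. Under all alternatives 55 values of single genes lost their call and 90 gained one. Counts are of uniquely placed reads, so a member whose reads are shared with copies is measured from few positions.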
